A study of Mus musculus with 6 samples.

Results

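The genes described here encode the pore-forming and auxiliary subunits of sodium, potassium and calcium channels, read across a time course of mouse neural tube organoids. They are the 86 genes that match the symbol patterns of the sodium channel alpha and beta subunits, of all Kcn potassium channel families, and of the calcium channel alpha1, alpha2delta and beta subunits, and that hold 20 or more unique molecular identifiers (UMIs, counts of captured RNA molecules) over the libraries of days 6 to 10. The members were thus chosen by their total UMIs in those libraries, which are a description here and support no result. Of 101 matching symbols, 15 held fewer. Kcne3 and Kcnu1 lay just inside the threshold with 24 UMIs each, and Kcnn4 and Kcns1 just outside it with 17 each. The whole series lists 21910 gene symbols.

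The organoids grew in Matrigel from 1 embryonic stem cell line, Sox1::eGFP;Bra::mCherry, which carries fluorescent reporters of Sox1 and Brachyury, and 100 organoids were pooled per condition per the labels' protocols. Single-cell RNA was captured in 6 libraries: non-elongated organoids at day 6 (n = 1), elongated organoids at day 6 (n = 2, batch 1 as replicate 1 and batch 2 as replicate 2), and elongated organoids at days 7, 8 and 10 (n = 1 each). All groups had the same line and medium, with bFGF and activin-A for the first days and neither afterwards; organoids for days 7 to 10 were freed from their gel at day 6 and embedded again singly. The libraries held 2076 to 3677 cells, 74072752 to 152742819 UMIs and a median of 22053 (day 10) to 59014 (elongated day 6 replicate 2) UMIs per cell; 1 to 4 cell barcodes were shared by any pair of libraries. The authors named the cell classes, and their filters are not given in the sources used here. The 3 dorsal interneuron classes (dI1, dI2, dI3) carried all 7 neuron markers at 7509 to 7969 CPM (UMIs scaled to a common total) in sum at day 10, against 303 in the mid/hindbrain class. The dP1 and proliferative progenitor classes stood between, at 2336 and 2342 CPM, as did dP2/3 at 1750 CPM. Doublets were not called.

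Voltage-gated channels open when the membrane is depolarised. Sodium channels start the action potential, delayed and transient potassium channels end it and set the firing rate, and calcium channels couple it to transmitter release and gene expression. In the embryonic neural tube, newborn neurons acquire these currents as they leave the cycle, and inward rectifier and tandem-pore potassium channels help to set the resting potential of many cell types. The symbol patterns take more than the voltage-gated families: 9 inward rectifier (Kcnj), 10 tandem-pore (Kcnk), 6 calcium- or sodium-activated (Kcnn, Kcnt, Kcnu) and 2 Kcne genes are members, beside 33 voltage-gated potassium channel genes and their silent and ether-a-go-go relatives, 7 sodium alpha, 3 sodium beta, 8 calcium alpha1, 4 alpha2delta and 4 beta genes.

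Promoters are shown for 5 members whose levels differed between days. They are the 250 bases upstream of the first start in RefSeq (GRCm38.p6), written 5′ to 3′ along the gene. Capitals mark the E-box CAGCTG, a string bound by basic helix-loop-helix dimers, and the GC box GGGCGG, each on either strand. Cacna2d1 (chr5:15934441-15934690, plus strand), Cacna2d3 (chr14:29721865-29722114, minus strand) and Kcnd3 (chr3:105451640-105451889, plus strand) were higher at day 10, Kcnj3 (chr2:55435720-55435969, plus strand) was lower from day 7, and Kcnc4 (chr3:107458899-107459148, minus strand) had 0 UMIs after day 6.
Cacna2d1: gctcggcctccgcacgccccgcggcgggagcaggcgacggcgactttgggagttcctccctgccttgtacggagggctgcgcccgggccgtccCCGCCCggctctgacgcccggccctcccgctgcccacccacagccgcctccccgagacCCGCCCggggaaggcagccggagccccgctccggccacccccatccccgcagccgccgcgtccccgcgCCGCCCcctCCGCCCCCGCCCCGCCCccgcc
Cacna2d3: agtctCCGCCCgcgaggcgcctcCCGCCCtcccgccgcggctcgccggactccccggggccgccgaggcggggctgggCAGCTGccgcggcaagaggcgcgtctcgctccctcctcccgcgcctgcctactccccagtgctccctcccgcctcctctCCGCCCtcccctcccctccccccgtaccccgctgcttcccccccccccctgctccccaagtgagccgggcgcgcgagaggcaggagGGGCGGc
Kcnd3: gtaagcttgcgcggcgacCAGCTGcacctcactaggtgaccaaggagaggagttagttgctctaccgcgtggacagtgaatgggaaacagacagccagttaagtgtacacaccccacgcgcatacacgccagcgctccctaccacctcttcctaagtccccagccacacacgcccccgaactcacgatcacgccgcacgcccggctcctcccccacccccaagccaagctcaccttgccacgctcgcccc
Kcnj3: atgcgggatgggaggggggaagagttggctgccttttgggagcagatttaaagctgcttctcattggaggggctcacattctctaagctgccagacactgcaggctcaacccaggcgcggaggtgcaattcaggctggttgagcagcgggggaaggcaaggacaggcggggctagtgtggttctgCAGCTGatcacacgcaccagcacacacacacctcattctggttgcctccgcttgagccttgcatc
Kcnc4: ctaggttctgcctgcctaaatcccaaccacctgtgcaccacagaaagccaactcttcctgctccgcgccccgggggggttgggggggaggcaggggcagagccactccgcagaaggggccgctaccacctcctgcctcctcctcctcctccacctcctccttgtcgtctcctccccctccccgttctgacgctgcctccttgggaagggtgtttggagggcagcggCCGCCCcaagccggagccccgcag
Of the 86 members, 56 matched the promoter table, with 77 promoters of 300 bases (250 before and 50 after the start), beside 32851 promoters of all genes. CAGCTG on either strand was present in 29.9% of member promoters and 16.3% of all, and GGGCGG in 51.9% and 35.7%. The E-boxes CATATG (2.60% and 3.91%) and CAGATG (14.3% and 17.2%), TATAAA (5.19% and 13.6%), and the strings CAGCACC (9.09% and 7.14%) and GGACAGC (10.4% and 6.56%), which are the 2 ends of the REST-binding element RE1, were searched as well. None of the 7 strings contains another. Member promoters had a median GC content of 62.7%, against 52.7% for all. These shares are descriptions, and many genes have several promoters.

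At day 10, channel genes were higher far more often than lower. Of 81 members tested, 29 were higher and 5 lower than in elongated organoids at day 6 (edgeR quasi-likelihood test with Benjamini-Hochberg adjustment over 16379 genes, FDR under 0.05), where 14.1% of all genes were higher and 12.3% lower (26.4% either way). The 29 include Kcnc2, Kcne1 and Kcnj9, and the 5 include Kcnc4 and Kcnk6. These entered the set only through the days where they were higher, so their part in the counts is no test. The median log2 fold change was 1.35 over the members and −0.01 over all genes. In sums over a library, fewer cells of a type and less RNA per cell cannot be told apart. At least 2-fold above each duplicate stood 41 of 81 members (16.5% of all genes) and 10 stood at least 2-fold below (14.5%). The calls grew with time: 3 members higher (1.9% of all genes) and 3 lower (2.09%; 3.99% either way) at day 7, then 11 higher (6.74%) and 9 lower (6.64%) at day 8. Of the members whose calls are no test, Kcnc4 was called lower at days 7 and 8, and Kcnk6 lower and Kcnc2 higher at day 8. By the 2-fold rule 9 members were higher (5.63%) and 16 lower (8.85%) at day 7, and 21 higher (10.3%) and 12 lower (12.7%) at day 8. These comparisons share the day 6 libraries, and the spread between the duplicates, which differ in batch and table, is the only one measured; the others are assumed to vary like them. The 7 neuron markers were all called higher at day 10 (median log2 fold change 5.53). Epiblast markers fell (4 of 4, median −8.62) and epithelial markers fell (5 of 5, median −3.98); the part of these cells in the channel results was not tested. The median of all genes moved by 0.24 at day 10 under scaling by library size alone.

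**Figure D1:**
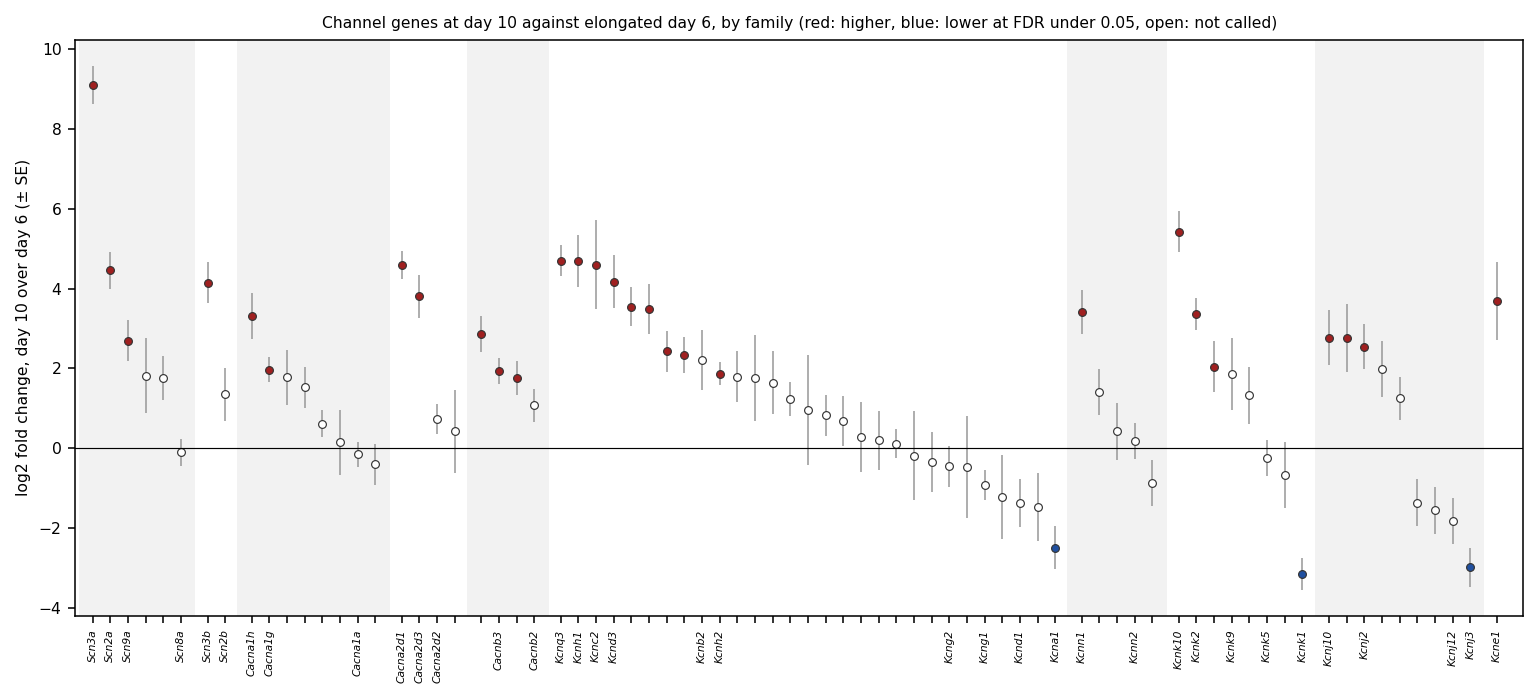
Log2 fold change of tested members at day 10 over elongated day 6 (points, with 1 SE), ordered by family and size. Filled points passed the edgeR test (red higher, blue lower), and open points did not. The calls of Kcnc2, Kcne1 and Kcnj9 are no test. Members whose values are given in the text carry their symbol; Kcnc4 and Kcnk6, which had 0 UMIs at day 10, are left out, as are members not reported here.

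Sodium alpha subunits form the pore of the sodium channel. At day 10, 3 of 6 tested were called higher and none lower, beside 14.1% and 12.3% of all genes. Scn3a, the subunit most used by embryonic neurons, measured 0.0411 and 0.0849 CPM in the elongated day 6 replicates, 0.0866 in the non-elongated library, 0.259 at day 7, 5.35 at day 8 and 37.8 at day 10. The log2 fold change at day 10 was 9.10 ± 0.47 (SE; adjusted p 9.02e-05, edgeR) and at day 8 6.28 ± 0.45 (adjusted p 0.000421). The day 6 and day 7 libraries lay close to 0, with 3 to 35 UMIs each, and the later ones far above. Scn2a measured 0.231, 0.329, 0.389, 0.755, 0.992 and 7.96 CPM in the order non-elongated, replicate 1, replicate 2, day 7, day 8 and day 10, the order used from here on. It rose at day 10 by log2 4.46 ± 0.47 (adjusted p 0.000807), and only day 10 stood well apart. Scn9a, an alpha subunit of sensory neurons, measured 0.736, 0.452, 0.460, 0.163, 0.883 and 2.96 CPM and was higher at day 10 (2.70 ± 0.51, adjusted p 0.00894). Scn8a, a subunit of mature axon initial segments, measured 20.2, 18.6, 27.1, 23.1, 22.2 and 21.2 CPM. Its change at day 10 was −0.11 ± 0.34 (adjusted p 0.839), and the day 7 to 10 libraries lay between the duplicates. On chromosome 2 (mm10, GENCODE M21) Scn3a (65457118 to 65567627), Scn2a, Scn1a, Scn9a and Scn7a lie in a row. Each of the 3 that rose is from this row, as are most of the 6 tested. Scn1a measured 0.397 and 0.630 CPM in the duplicates and 1.75 at day 10 and was not called there, and Scn7a was not tested.

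Of 3 auxiliary sodium beta subunits tested, 1 was called higher at day 10 and none lower, beside 14.1% and 12.3% of all genes. Scn3b measured 0.476, 0.246, 0.262, 0.289, 0.647 and 4.54 CPM, and rose at day 10 by log2 4.15 ± 0.51 (adjusted p 0.00152). Scn2b measured 0.246 and 0.609 CPM in the duplicates and 1.11 at day 10 (1.35 ± 0.66, adjusted p 0.168).

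Each calcium channel subunit class had genes called higher at day 10, where 14.1% of all genes were higher and 12.3% lower. Families this small give coarse shares. Of 8 alpha1 subunits, the pore, 2 were called higher and none lower. Of 4 alpha2delta subunits, which carry the pore to the surface, 2 were called higher, and of 4 beta subunits 3. Cacna1g, a low-voltage T-type pore, measured 1.82, 3.23, 2.89, 16.5, 13.5 and 12.0 CPM. It was higher at day 7 (2.43 ± 0.32, adjusted p 0.00977), day 8 (2.14 ± 0.32, adjusted p 0.00552) and day 10 (1.97 ± 0.32, adjusted p 0.00468), so all later libraries lay above all day 6 ones. Cacna1h, another T-type pore, was chosen here after its values were seen; it rose to 6.60 CPM at day 10 (3.32 ± 0.57, adjusted p 0.00633). Cacna1a, the P/Q-type pore of presynaptic terminals, measured 16.2, 17.2, 16.6, 15.1, 16.6 and 15.3 CPM and changed by −0.15 ± 0.31 (adjusted p 0.754).

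Cacna2d1 measured 3.52, 1.47, 1.91, 0.229, 3.63 and 40.8 CPM. It was lower at day 7 (−2.88 ± 0.43, adjusted p 0.0141) and higher at day 10 (4.59 ± 0.35, adjusted p 0.000245). Against the day 8 library it was higher at day 10 by 3.49 ± 0.44 (adjusted p 0.043), the only member called there, where 0.171% of all genes were higher and 0.0244% lower (0.195% either way). With no filter on low counts, or with a minimum count of 100, that call was lost (0 members). Cacna2d3 measured 0.188, 0.205, 0.269, 0.215, 1.25 and 3.37 CPM, and was higher at day 8 (2.38 ± 0.54, adjusted p 0.0266) and day 10 (3.81 ± 0.54, adjusted p 0.00276). Cacna2d2 measured 8.47 CPM at day 10 against 4.24 and 5.94 (0.73 ± 0.37, adjusted p 0.181). Cacnb3 measured 12.9, 10.6, 7.97, 13.4, 17.8 and 35.5 CPM and rose at day 10 (1.94 ± 0.32, adjusted p 0.00526), and Cacnb2 reached 4.09 CPM (1.07 ± 0.41, adjusted p 0.0934).

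**Figure D2:**
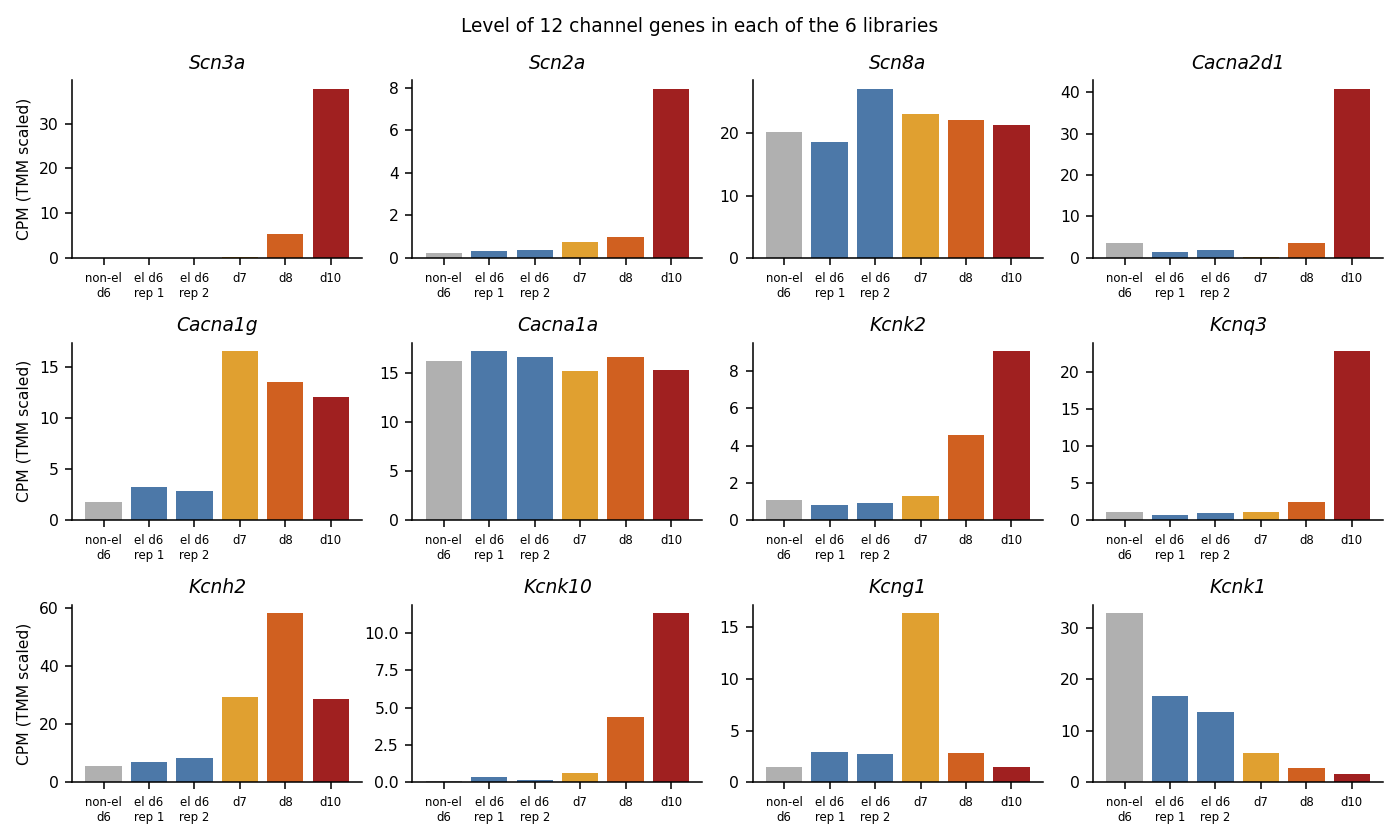
Level of 12 members in each library (bars; y axis, CPM with TMM scaling, starting at 0; grey non-elongated, blue elongated day 6, orange to red later days; 1 value per library, no error bar). Scn3a, Cacna2d1, Kcnq3 and Kcnk10 stand highest at day 10, Kcng1 at day 7, Kcnh2 at day 8, and Kcnk1 declines, while Scn8a and Cacna1a vary little.

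Of 32 voltage-gated potassium channel genes tested, 10 were higher and 2 lower at day 10, beside 14.1% and 12.3% of all genes. The 10 include Kcnc2 and the 2 include Kcnc4, whose calls are no test. Kcnq3, a subunit of the M-current that dampens firing, measured 1.08, 0.739, 1.01, 1.10, 2.45 and 22.9 CPM. It rose at day 10 (4.70 ± 0.38, adjusted p 0.00032) and at day 8 (1.47 ± 0.37, adjusted p 0.04). Kcnh2, the ERG channel, measured 5.64, 7.17, 8.46, 29.4, 58.2 and 28.6 CPM; every later library exceeded the day 6 ones and day 8 was highest. Its log2 fold changes were 1.91 ± 0.29 at day 7 (adjusted p 0.0145), 2.90 ± 0.29 at day 8 (adjusted p 0.0013) and 1.87 ± 0.29 at day 10 (adjusted p 0.00382). Kcnh1 reached 1.69 CPM at day 8 and 1.11 at day 10 from 0.0411 and 0.0425, or 3 and 6 UMIs (4.69 ± 0.65 at day 10, adjusted p 0.00252). Kcnd3, a transient A-type channel, reached 3.92 CPM from 0.329 and 0.120 (4.17 ± 0.67, adjusted p 0.00454).

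Other members of the family peaked early or fell. Kcng1, a silent modifier of other channels, measured 1.49, 2.94, 2.74, 16.4, 2.81 and 1.50 CPM and was higher at day 7 only (2.53 ± 0.34, adjusted p 0.011); its day 10 change was −0.92 ± 0.38 (adjusted p 0.112). Kcna1, a delayed rectifier of axons, measured 2.66, 7.16, 3.76, 10.1, 0.782 and 0.971 CPM and was lower at day 8 (−2.80 ± 0.55, adjusted p 0.0159) and day 10 (−2.49 ± 0.54, adjusted p 0.0143). Kcnc4 had 71 UMIs in the non-elongated library, 25 and 40 in the duplicates, and 0 at days 7, 8 and 10. Against a floor of 3 UMIs per library it was at least 14.2-fold lower at day 7, 12.5-fold at day 8 and 10.5-fold at day 10. All 40 UMIs that admitted Kcnc4 to the set came from replicate 2 of day 6, so its fall is a description and no test. Kcnd1, an A-type channel, fell from 1.05 and 1.03 to 0.193 CPM at day 8 (−2.42 ± 0.64, adjusted p 0.0457). Kcnc2 had 0 and 3 UMIs in the duplicates, 5 at day 7, and 43 and 35 at days 8 and 10 (4.64 ± 1.10 and 4.60 ± 1.11). It entered the set only through days 8 and 10, so its rise is a description and no test.

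Channels that set the resting potential moved apart. Kcnk1 (TWIK1), a tandem-pore channel, measured 32.9, 16.8, 13.6, 5.63, 2.86 and 1.72 CPM, and was lower at day 8 (−2.41 ± 0.38, adjusted p 0.00706) and day 10 (−3.14 ± 0.40, adjusted p 0.00168). Within the non-elongated library it was highest in the class called surface ectoderm, at 59.1 CPM, and 37.6 in caudal epiblast. Kcnk10 (TREK2) measured 0.115, 0.356, 0.184, 0.637, 4.35 and 11.3 CPM, rising at day 10 by 5.42 ± 0.51 (adjusted p 0.000555). Kcnk2 (TREK1) measured 1.10, 0.822, 0.934, 1.28, 4.59 and 9.09 CPM (3.37 ± 0.40, adjusted p 0.00129). Kcnk6 fell from 9 and 39 UMIs to 0 at days 8 and 10, at least 7.99-fold and 6.72-fold lower. With 4 UMIs at day 7, Kcnk6 entered the set only through day 6, so its fall is a description and no test. Kcnk5 measured 2.74 CPM at day 10 against 2.64 and 3.84 (−0.24 ± 0.44, adjusted p 0.714).

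Inward rectifiers pass potassium best near rest. Kcnj3, a G protein-gated channel, measured 7.91, 4.66, 6.56, 1.22, 0.891 and 0.711 CPM, lower at day 7 (−2.20 ± 0.46, adjusted p 0.0451), day 8 (−2.65 ± 0.47, adjusted p 0.0117) and day 10 (−2.98 ± 0.49, adjusted p 0.00495). These are sums over whole libraries. By class, Kcnj3 measured 10.3 CPM in neurons and 0.315 in progenitors at day 8, and 1.87 and 0.426 at day 10. Kcnj2 (Kir2.1) rose from 0.219 and 0.382 to 2.24 CPM at day 8 and 1.79 at day 10 (2.55 ± 0.56, adjusted p 0.0149). Kcnj12 (Kir2.2) fell from 1.81 and 1.80 to 0.0757 CPM at day 8 (−4.56 ± 0.69, adjusted p 0.00619), and measured 0.510 CPM at day 10 (−1.82 ± 0.57, adjusted p 0.0505). Kcnj10 reached 0.771 CPM, or 77 UMIs, at day 10 (2.77 ± 0.70, adjusted p 0.025). Among activated channels Kcnn1 (SK1) rose to 8.79 CPM from 1.16 and 0.502 (3.42 ± 0.54, adjusted p 0.00441) and Kcnn2 (SK2) measured 2.58 against 1.94 and 2.63 (0.17 ± 0.45, adjusted p 0.8). Kcne1 held 36 UMIs at day 10 and 1 and 5 in the duplicates (3.69 ± 0.98). It entered the set only through its UMIs at days 8 and 10, so this rise is a description and no test.

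Non-elongated organoids at day 6 were set against the elongated duplicates, and edgeR called 0 of 81 members and 0% of all genes. An unadjusted p under 0.05 was held by 6 of 81 members and 1137 of 16379 genes. DESeq2 called 0 of 57 members and 126 of 13272 genes, and edgeR with RLE scaling called 0 members and 21 genes. At least 2-fold above each duplicate stood 4 members (4.11% of all genes) and 5 stood below (3.36%). Kcnk1 showed 32.9 CPM against 16.8 and 13.6 (1.11 ± 0.32, adjusted p 0.453) and Kcnb2, chosen after its values were seen, 0.0722 against 1.48 and 0.347 (−3.62 ± 1.10, adjusted p 0.5). Beside them, epiblast and epithelial markers had medians of 2.10 and 2.05, with 0 called.

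A slope over day in the 5 elongated libraries called 22 of 77 members upward (11.3% of all genes) and 4 downward (12.5%). The 22 include Kcne1 and Kcnj9 and the 4 include Kcnc4 and Kcnk6, whose calls are no test. Without the day 10 library the slope called 7 members upward and 7 downward of 73 (5.07% and 6.02% of all genes), so the excess of upward calls was absent. Without replicate 1 of day 6 it called 14 upward and 1 downward of 76 (5.27% and 5.86%). Without replicate 2 it called 0 members and 0 genes, and 34 of 73 members and 4852 of 15251 genes had an unadjusted p under 0.05. Neural progenitors are here the hindbrain, midbrain, mid/hindbrain, spinal cord, proliferative progenitor and dP1 classes. The dP2/3 class was left out, since its leading genes in an earlier look at these data were those of newborn neurons. Its summed neuron markers at day 10 lay below those of dP1 and the proliferative class. In these progenitors alone, 13 of 73 members rose (7.01% of all genes) and 4 fell (9.32%). The 13 include Kcne1 and Kcnj9 and the 4 include Kcnc4, whose calls are no test. With dP2/3 counted in, 14 rose and 4 fell (8.02% and 10.1%). Without the day 10 library the balance turned, with 4 members upward and 6 downward of 70, beside 440 genes upward and 609 downward of 15219. Without day 8, 7 were upward and 2 downward of 68 (3.06% and 2.82%). Leaving out replicate 1 or replicate 2 of day 6 gave 0 members by edgeR, where 19 and 8 genes in all were called. An unadjusted p under 0.05 was held by 25 of 72 and 23 of 67 members, beside 4542 of 15061 and 4221 of 14523 genes. In these progenitors Kcnq3 measured 0.821, 0.641, 0.896, 0.975, 2.64 and 33.8 CPM, with a slope of 1.32 ± 0.14 log2 per day (adjusted p 0.013, edgeR). Scn3a measured 0, 0, 0.0821, 0.202, 1.73 and 10.6 CPM (1.91 ± 0.25 per day, adjusted p 0.0167), Kcnk10 rose from 0.363 and 0.171 to 8.54 CPM (1.32 ± 0.21, adjusted p 0.0203), and Kcnk1 fell from 12.4 and 12.2 to 2.67 CPM (−0.62 ± 0.12, adjusted p 0.0305). Kcnd3 (0.92 ± 0.15), Kcne1 (1.07 ± 0.17) and Kcnj10 (0.91 ± 0.13) also rose, and Kcng2 (−0.79 ± 0.16) and Kcnj12 (−1.37 ± 0.33) fell. The slope of Kcne1 is no test, since it entered the set only through days 8 and 10.

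The summed neuron markers in these progenitors also differed by day, from 181 and 179 CPM at day 6 to 242 at day 8 and 755 at day 10. In the regional classes alone (hindbrain, midbrain, mid/hindbrain and spinal cord) they stood at 166 CPM at day 8 and 314 at day 10, and 11 of 73 members rose and 3 fell there (5.29% and 7.63% of all genes), an alternative chosen after seeing the data. In mid/hindbrain at day 10 the 7 neuron markers stood at 1.34% to 14.4% of their level in neurons (median 5.06%). Scn3a (5.85%), Cacna2d1 (2.43%) and Scn2a (4.48%) lay inside that range. Kcnk10 (41.8%), Kcnk2 (65.5%), Cacnb3 (54.4%) and Kcnq3 (372%) lay above it. The part of neuron RNA in the progenitor slopes was not tested.

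Within the organoids, neurons and progenitors are compared here without a test, since the authors made the classes from the same counts; intervals cover counting error only. Neurons are the dI1, dI2 and dI3 classes, and progenitors are as above, with dP1 and the proliferative class. The dP2/3 class (394 cells at day 10, 296 at day 8) is in neither group. At day 10 (1176 neurons, 1691 progenitors), 37 of the 54 members with 50 or more UMIs were at least 2-fold higher in neurons and 7 at least 2-fold lower, beside 18.7% and 15.4% of all genes. At day 8 (272 and 2617 cells) these were 29 and 9 of 51 members, beside 16.6% and 17.1%. Scn3a measured 125 CPM in neurons (95% interval 121 to 129) and 10.6 in progenitors (9.71 to 11.6) at day 10, and Cacna2d1 133 (129 to 138) and 10.5 (9.54 to 11.5). The ratio of neurons over progenitors was highest for Kcnk9 (TASK3), at 72.1 with 3 progenitor UMIs (24.1 to 354), then Scn9a at 36.7 (21.1 to 69.8), Cacna2d3 at 36.3 (21.7 to 65.6), Kcna1 at 27.3 (11.2 to 86.5), Scn2a at 19.5 (15.1 to 25.6) and Scn3b at 18.2 (13.1 to 26.0).

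**Figure D3:**
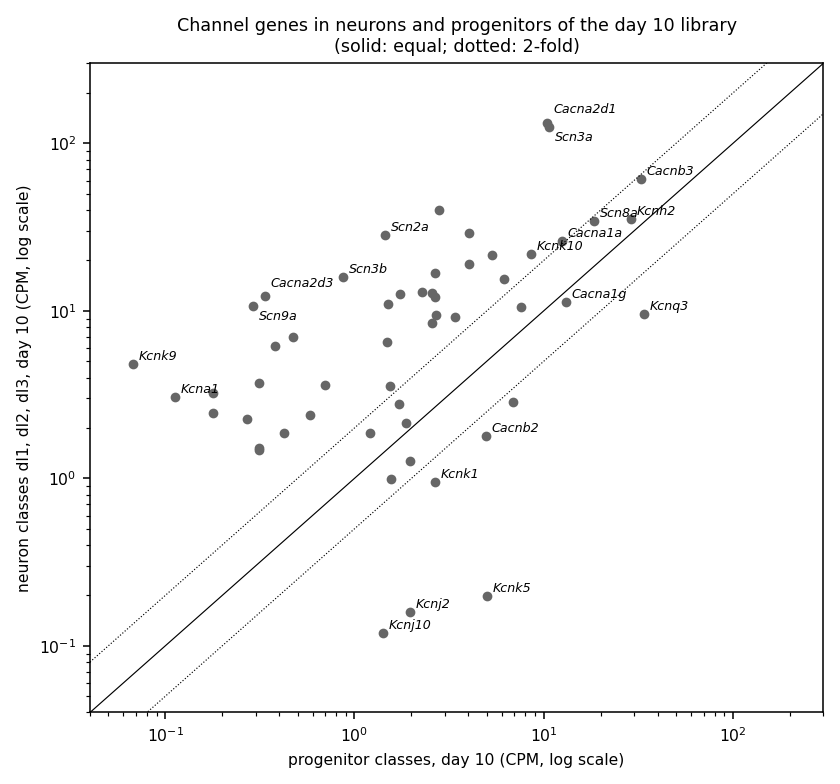
Level of each member with 50 or more UMIs in neurons (y axis) against progenitors (x axis) of the day 10 library, in CPM on log scales. Of 54 members, 37 lie above the upper 2-fold line and 7 below the lower one; Kcnk5, Kcnj2 and Kcnj10 lie farthest below.

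The 7 members at least 2-fold lower in neurons were 7 of 54, beside 15.4% of all genes, and not all were highest in progenitors. Kcnk5 (TASK2) measured 0.199 CPM in neurons (0.0645 to 0.463) and 5.02 in progenitors (4.38 to 5.72), a ratio of 0.0396. Kcnj2 (0.0806), Kcnj10 (0.0844), Kcnq3 (0.285), Kcnk1 (0.358) and Cacnb2 (0.361) followed. Cacnb2 measured 4.95 CPM in progenitors and 11.1 CPM in the pre-EMT vagal/trunk crest class, and Kcnj2 1.97 and 5.89 CPM. Kcnq3 measured 9.61 CPM in neurons (8.44 to 10.9) and 33.8 in progenitors (32.1 to 35.5). At day 8 it lay the same way, with 0.573 and 2.64 CPM. At 10000 UMIs per cell, Kcnq3 was detected in 24.2% of progenitors (22.2 to 26.3%) and 7.45% of neurons (6.00 to 9.11%) at day 10, and without thinning in 42.2% and 13.4%. Kcna1 was 0.471 times its progenitor level in neurons at day 8, on 3 neuron UMIs, with an interval that includes 1 (0.0953 to 1.42). At day 10 it was 27.3 times, on 77 neuron and 5 progenitor UMIs. Of the 77, 59 were in dI3, 18 in dI1 and 0 in dI2. The progenitor level was 0.913 CPM at day 8 and 0.112 at day 10.

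Among the neurons, classes differed in their channels. At day 10, Scn9a measured 21.6 CPM in dI3, 6.58 in dI2 and 3.41 in dI1, Cacna2d3 24.8, 8.22 and 3.19, Scn3b 30.8, 5.62 and 9.68, and Kcnk9 10.8, 0.548 and 2.53. Kcnd3 was highest in dI1, at 17.9 CPM against 1.64 in dI2 and 7.05 in dI3. Scn3a (157, 99.6 and 112 CPM in dI1, dI2 and dI3) and Kcnn1 (21.1, 26.0 and 18.5) differed less. In dP2/3 Kcnq3 reached 55.3 CPM and Kcnh2 53.2 CPM. In the migratory crest class of 56 cells Kcnj2 measured 9.25 CPM (5.57 to 14.4), and Kcng2 was 9.27 in the pre-EMT cranial crest class. At day 8 Cacna2d1 measured 73.5 CPM in dI3 and 5.73 in dI2.

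**Figure D4:**
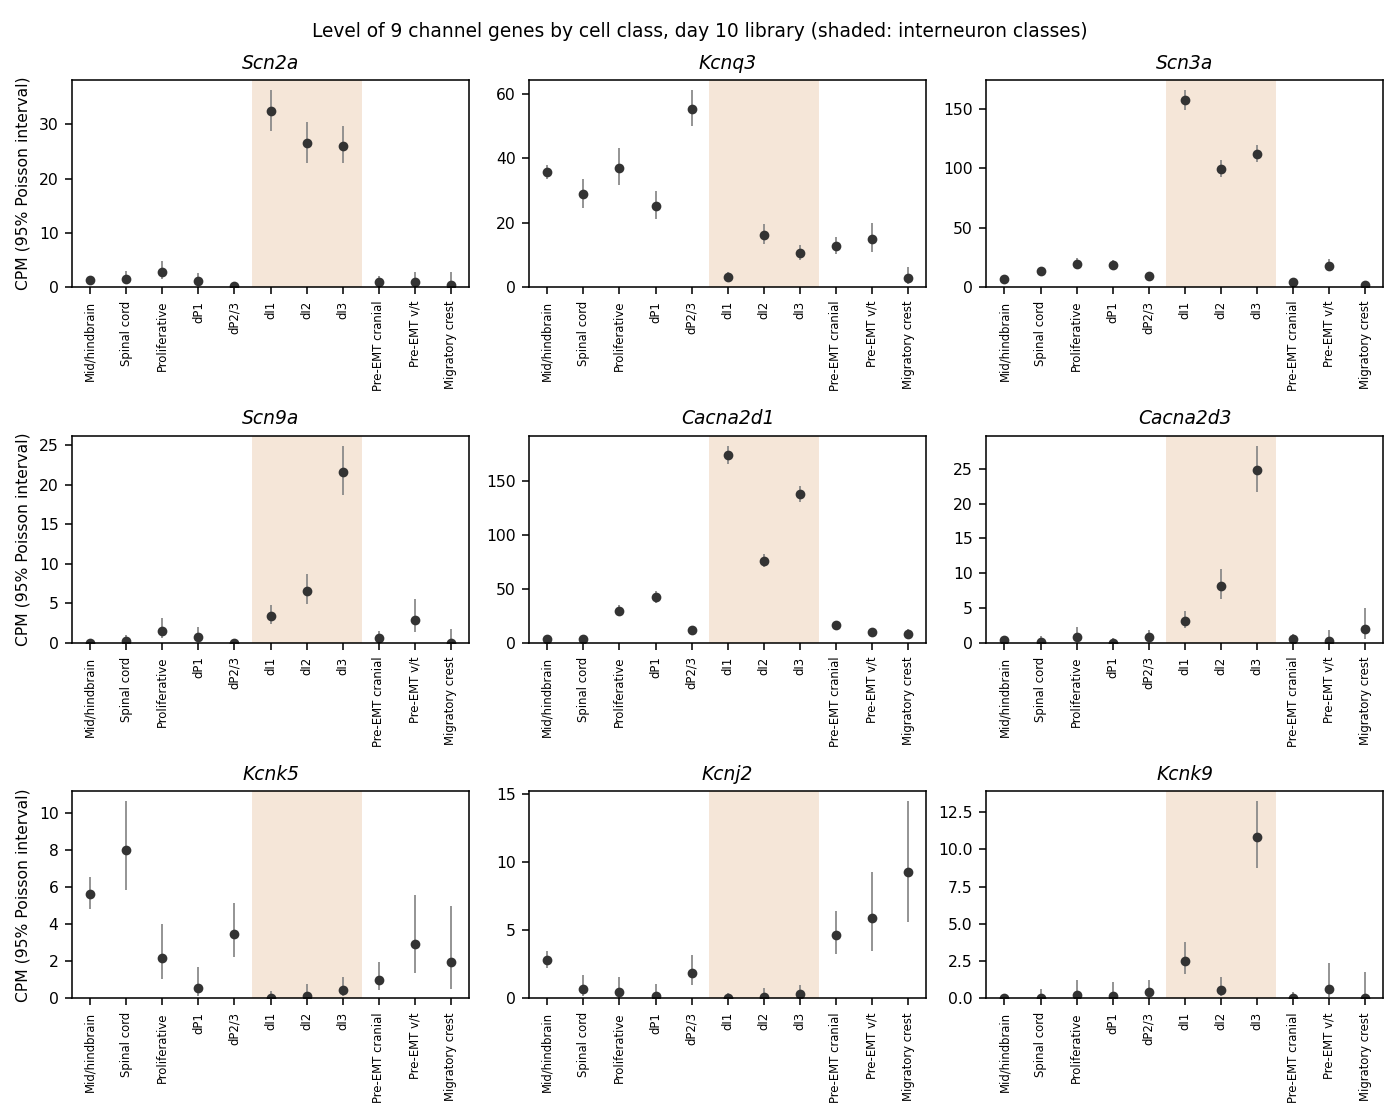
Level of 9 members by cell class in the day 10 library (points; CPM with 95% Poisson intervals, covering counting error only; shading marks the interneuron classes). Scn2a and Scn3a stand higher in all 3 interneuron classes, Scn9a, Cacna2d3 and Kcnk9 are highest in dI3, Kcnq3 is highest in dP2/3, and Kcnk5 in the spinal cord class.

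Neurons also carried more of these genes per cell. With each cell thinned to 10000 UMIs, the mean number of members with a UMI was 4.88 in neurons and 1.81 in progenitors at day 8, and 5.86 and 2.28 at day 10; 21 neurons of day 10 were too shallow. The median was 6 in day 10 neurons (quartiles 4 and 8) and 2 in progenitors (1 and 3). At day 6 (replicate 2) and day 7 progenitors had means of 1.40 and 1.69. Crest cells had 2.40 at day 10. Of the classes at day 10, dI3 was highest with a mean of 6.43 and dI2 lowest of the neurons with 5.25.

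**Figure D5:**
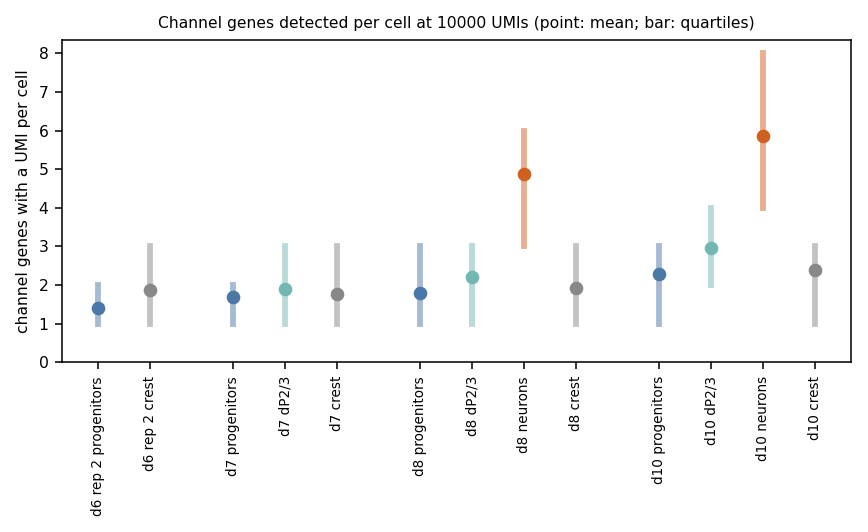
Number of members with a UMI per cell after thinning to 10000 UMIs (points, mean; bars, quartiles), by library and cell group. Neuron means of 4.88 and 5.86 stand above those of all other groups shown.

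Genes that work with these channels were followed as lists, with results of these data known; beside each count stand 14.1% of all genes higher and 12.3% lower at day 10, and lists of 6 to 13 genes give coarse shares. Of 9 axon initial segment genes and sodium channel partners, 6 rose and none fell at day 10, with a median log2 fold change of 1.59; Ank2, an ankyrin that anchors channels, went from 21.8 and 25.9 to 103 CPM, and Nfasc from 5.15 and 5.65 to 41.4. Of 10 presynaptic genes 9 rose (median 2.29), Syt1, the calcium sensor of release, from 0.246 and 0.354 to 28.2 CPM; Snap25 is also a neuron marker. Of 13 potassium channel auxiliary genes 5 rose and 2 fell (median 1.43): Dpp6, which speeds A-type channels, reached 12.9 CPM from 1.53 and 2.53, and Kcnip2, another A-type partner, fell from 3.12 and 3.28 to 0.410. Of 8 other channels 5 rose (median 1.72), and of 6 calcium gamma subunits 2 (median 0.89), among them Cacng4, from 18.9 and 22.8 to 113 CPM. Of 6 sodium pump genes 2 rose (median 0.48). Of Rest and its corepressors 0 of 6 were called by edgeR at day 10 (median −0.31), and Rest measured 61.7 and 73.0 CPM in the duplicates and 46.4 at day 10.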

How the data were processed

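Single cells of 6 libraries were captured with 10x Genomics 3′ v3 chemistry, per the labels' protocols. Cell Ranger 3.1 and the mm10 build are named in the submitters' processing notes; aligner settings and cell filters are not given in the sources used here. The authors deposited whole-number UMI counts per gene and cell, and per cell a mitochondrial percent and a class name. The sample names NENT and SENT in 1 table were read by their initials as non-elongated and elongated day 6. No columns of per-sample values were left out (0).

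UMIs were summed per library over the 17296 symbols common to both tables and tested with edgeR 4.0.16 (quasi-likelihood, TMM scaling, filterByExpr minimum count 10, R 4.3.3, limma 3.58.1), with Benjamini-Hochberg adjustment over all genes tested and FDR under 0.05. Groups were fitted with 1 residual degree of freedom, and a slope over day with 3, also within neural progenitor classes. The self-test on simulated data was run first. Of 86 members, 82 were in both tables and 81 passed the filter; Kcnk4, Kcnd2, Scn7a and Kcnu1 are in 1 table only and Kcne3 did not pass. p-values measure the spread between these samples, which may be technical. Neurons and progenitors were compared by CPM with 95% Poisson intervals, shares with exact Clopper-Pearson intervals.

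Named members are the 2 with most UMIs per family, those called in a comparison (at most 8 each way) or by the progenitor slope (at most 6 each way), the 6 highest and 6 lowest neuron over progenitor ratios at 50 or more UMIs, those at the threshold, and those whose ratio differs 4-fold in direction between days 8 and 10. The members and lists were chosen with earlier results of these data known. Alternatives were RLE scaling, library size alone, no filter, a minimum count of 100, DESeq2 1.42.0, leaving out each library, 1 table alone, and other thinning depths and classes. Some members and related genes that this rule names are not reported here.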

Additional observations from a re-analysis of the deposited data

Results flagged for a closer look

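Pooled over the neuron classes, Kcnh2 lay on opposite sides at days 8 and 10. Its level in neurons over progenitors was 1.23 at day 10 (95% counting interval 1.13 to 1.34) and 0.738 at day 8 (0.656 to 0.827), with 35.5 against 28.9 CPM and 44.4 against 60.2 CPM. The neuron pool held 34 dI1, 98 dI2 and 140 dI3 cells at day 8, and 435, 374 and 367 at day 10. Kcnh2 differed between these classes at day 8, with 149 of 2095652 UMIs in dI2 and 120 of 4070217 in dI3. The part of this class mix was not tested. The difference between the days was not tested either, and each day is 1 library.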

How the results depend on the processing

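Gene by gene, only the named members were checked. None of their called values changed sign under the alternatives run, but many calls were lost. Without the day 10 library 15 of their slope calls were lost and 13 stayed. Without replicate 1 or replicate 2 of day 6, 17 and 26 were lost. Set against replicate 2 alone, 19 of the called fold changes over day 6 moved by more than the standard deviation of the duplicates. Set against replicate 1 alone, 12 did. The balance of the slope calls depended on the day 10 library. Counts of called members given here include those whose calls are no test. Day 10 against day 8 called 1 of 81 members, 3 of 81 under RLE scaling (0.598% of all genes higher), 0 with no filter, 0 of 56 at a minimum count of 100 and 5 of 52 by DESeq2 (1.74% higher). Day 8 against day 6 called 20 of 81 (13.4% of all genes), and 13 of 56 at a minimum count of 100 (13.0%). The slope over day called 26 of 77 (23.8% of all genes) and 42 of 82 by DESeq2 (16.8% of all genes higher, 19.1% lower). In the table of days 6 to 10 alone it called 15 of 77 (10.3%). With a library left out it called 0 to 24, where 0% to 19.2% of all genes were called. Without day 10 it called 14, 7 each way (11.1%). The slope in progenitors called 17 of 73 (16.3% of all genes), and 26 of 76 by DESeq2 (14.0% higher, 16.3% lower). At a minimum count of 100 it called 11 of 37 (18.4% of all genes). With a library left out the progenitor slope called 0 to 14, where 0.0551% to 11.5% of all genes were called. Without day 10 it called 4 upward and 6 downward (6.89% of all genes either way), against 13 and 4 with it. Members per cell moved with depth: thinned to 5000 UMIs the means were 2.51 in neurons and 0.961 in progenitors at day 8, and 3.41 and 1.23 at day 10, and without thinning 9.50 and 4.93, and 9.95 and 4.97. Neurons stood higher at each depth. The use of regional classes alone was chosen after seeing the data. Group comparisons without a day 6 duplicate have no residual degrees of freedom and give no test. No paired analysis was possible because only 1 group has more than 1 library. The causes of these changes were not tested.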
